A study of Mus musculus with 13 samples.

Results

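Thymic epithelial genes were followed across 13 RNA sequencing libraries of mouse thymic lymphoma and thymus. The set was defined by gene symbol and holds 30 genes of the 43629 in the deposited table, each with a value in all 13 libraries. It comprises 8 regulators, 4 genes of the cortical epithelium, 4 of the medullary epithelium, 6 keratins, 6 ligands and 2 adhesion molecules. Lymphomas came from 5 Atm-/- mice of the 129S6/SvEv strain, which lack the ATM kinase that signals DNA double-strand breaks. A further 5 lymphomas came from Rag2c/c p53-/- mice on a mixture of C57BL/6 and 129S6/SvEv, which lack p53 and make a RAG2 recombinase protein without its C-terminal part. The 3 WT thymuses were from C57BL/6 mice and had been sequenced for another series. A label field calls their tissue thymus, whereas another gives them the same lymphoma source name as the tumors. Strain and series of origin went with the groups, so neither can be told apart from genotype or from transformation. Per the labels of every group, RNA was extracted from single-cell suspensions rather than from intact tissue.

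The thymus is built on a scaffold of epithelial cells in which T cell precursors mature. Cortical epithelial cells supply Notch ligand, IL-7 and chemokines to immature thymocytes and present a special set of peptides for positive selection, whereas medullary epithelial cells display tissue-restricted self antigens that purge autoreactive clones. FOXN1 is the transcription factor on which the differentiation of both lineages depends. Because thymocytes outnumber the scaffold many-fold, epithelial transcripts are a small share of the RNA of a thymus. In such bulk RNA, fewer epithelial cells and less RNA per epithelial cell cannot be told apart.

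Values are normalized counts, rounded to whole numbers by the authors. Depth, estimated from the steps between low values, was 6.66 to 38.8 M reads in WT thymus, 9.23 to 23.6 M reads in Atm-/- lymphomas and 6.37 to 24.7 M reads in Rag2c/c p53-/- lymphomas. A single read was worth 0.51 normalized counts in the deepest library and 3.38 in the shallowest. Replicate 2 was the shallowest library of each group, so a 0 there carries less information than elsewhere. Atm itself read 1990, 1559 and 2274 normalized counts in WT thymus, 208 to 732 in Atm-/- lymphomas and 439 to 1315 in Rag2c/c p53-/- lymphomas. Every lymphoma of both groups lay below every WT thymus, and the values of the lymphoma groups overlapped. Trp53 read 2018 to 5461 in Rag2c/c p53-/- lymphomas and 4387 to 6341 in WT thymus, and Rag2 read 260 to 790 and 4199 to 5409 in the same groups. Gene-level values do not show which exons the reads came from, so Atm, Trp53 and Rag2 do not by themselves check the genotype labels.

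Among the genes described below, Psmb11 and Tbata were near 0 in both lymphoma groups whereas Ccl25 was not, and their promoters are shown for that contrast. Each stretch holds the 250 bases before the annotated start, read 5′ to 3′ on the coding strand from RefSeq (GRCm38.p6). Capitals mark matches to GACGC on either strand, the core sequence bound by FOXN1, so that a match on the opposite strand reads GCGTC. The stretches lie at chr14:54625060-54625309 for Psmb11, chr10:61171714-61171963 for Tbata and chr8:4324960-4325209 for the upstream of 2 annotated Ccl25 starts, all on the plus strand.
Psmb11: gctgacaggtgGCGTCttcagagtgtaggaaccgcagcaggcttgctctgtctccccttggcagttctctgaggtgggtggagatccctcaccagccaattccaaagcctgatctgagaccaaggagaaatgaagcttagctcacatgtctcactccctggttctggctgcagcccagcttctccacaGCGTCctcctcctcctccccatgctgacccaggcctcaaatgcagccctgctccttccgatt
Tbata: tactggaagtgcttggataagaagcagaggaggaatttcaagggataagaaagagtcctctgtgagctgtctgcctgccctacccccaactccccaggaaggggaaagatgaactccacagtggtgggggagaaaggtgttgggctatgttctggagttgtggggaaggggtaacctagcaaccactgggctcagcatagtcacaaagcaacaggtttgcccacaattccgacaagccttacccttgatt
Ccl25: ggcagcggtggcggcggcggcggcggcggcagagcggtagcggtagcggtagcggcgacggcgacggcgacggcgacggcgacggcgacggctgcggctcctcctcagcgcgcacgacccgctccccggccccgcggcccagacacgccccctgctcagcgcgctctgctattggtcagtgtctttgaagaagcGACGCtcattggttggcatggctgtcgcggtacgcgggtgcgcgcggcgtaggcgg
The Psmb11 stretch held 2 matches, both on the opposite strand, the Ccl25 stretch held 1 and the Tbata stretch held 0. The 250 bases before the other Ccl25 start, not printed, held 0. Of the 30 genes, 22 had a promoter in the table, and 7 of these (31.8%) held a match in the window, against 24.8% of the 27025 genes listed. The remaining 5 were Aire, Cxcl12, Enpep, Fezf2 and Pax1, with 1 match each. Over single promoters the share was 22.6% of all 32851. A match of 5 letters is frequent and marks no binding site by itself.

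Against WT thymus, 10 of the 30 genes were called lower in Atm-/- lymphomas and 0 were called higher. The same test called 29.5% of all 15872 genes tested, 17.0% lower and 12.6% higher. In Rag2c/c p53-/- lymphomas 15 of the 30 were called lower and 0 higher, where 23.6% of all genes tested were called, 13.9% lower and 9.77% higher. A call required a Benjamini-Hochberg adjusted p under 0.05 by limma, a difference of at least 1 in log2(normalized count + 1), written log2 difference below, and a mean of at least 10 in a group compared. A gene was tested where at least 3 libraries reached 10 normalized counts, and 24 of the 30 were. Of those, 10 reached that level only with the help of the WT thymuses, with fewer than 3 lymphomas at 10, and could hardly be called higher. They were Foxn1, Pax1, Eya1, Trp63, Tbata, Psmb11, Prss16, Fezf2, Dll4 and Il7. The counts of calls are therefore a description of the set. The genes left untested were Pax9, Elf3, Enpep, Cldn3, Krt15 and Ccl19, all of which stayed at or below 18 normalized counts in every library.

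Counted over all 30 genes, 13 had every Atm-/- lymphoma below every WT thymus and 1, Cldn3, had every lymphoma above. For the Rag2c/c p53-/- lymphomas 16 of the 30 lay wholly below WT thymus and 0 wholly above. Among all genes tested, 27.9% lay wholly below and 23.4% wholly above in the Atm-/- comparison, and 24.2% and 19.7% did so in the Rag2c/c p53-/- comparison. Members were counted whether tested or not, whereas these shares cover tested genes only. The summed level of the 30 genes was 3342 to 4296 normalized counts in WT thymus, 1203 to 3372 in Atm-/- lymphomas and 976 to 2643 in Rag2c/c p53-/- lymphomas. By role, the median log2 difference of the genes tested ran from -6.16 for 3 cortical genes to -0.46 for 5 ligands in Atm-/- lymphomas, and from -6.03 for the cortical genes to -0.56 for the 2 adhesion molecules in Rag2c/c p53-/- lymphomas. The median over all genes tested was -0.02 in both. The cortical medians are the values of Prss16 (Atm-/-) and Psmb11 (Rag2c/c p53-/-), which reached the filter only with the WT thymuses. So did Foxn1, Pax1, Eya1, Tbata, Fezf2 and Il7, which also lay wholly below WT thymus in both groups. These counts and medians therefore describe the set and no more.

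**Figure D1:**
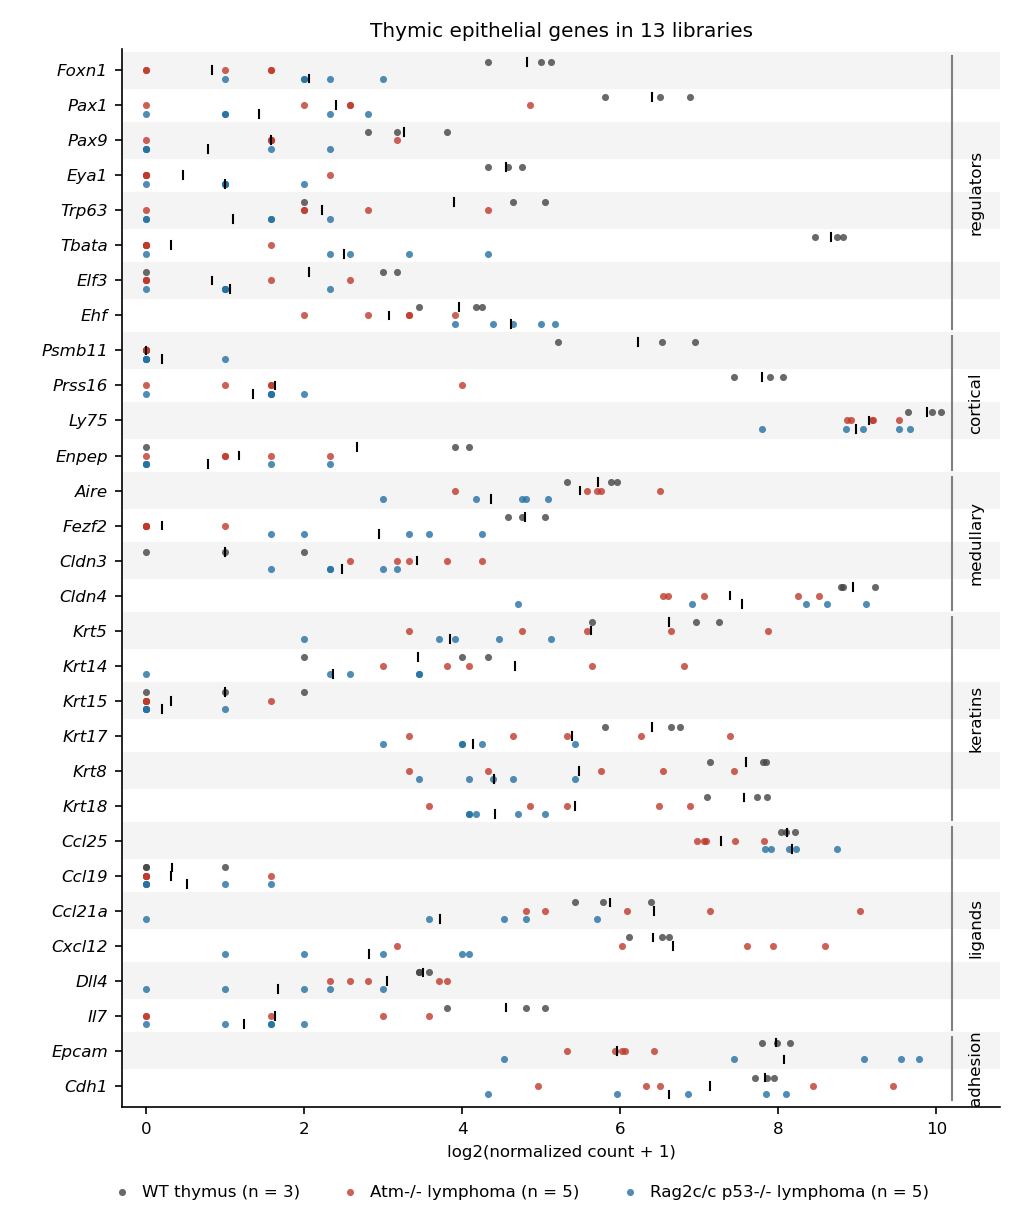
Level of each of the 30 genes in each library, as log2(normalized count + 1), with a point for each library, a short black line for the group mean on that scale, and the genes grouped by role. Psmb11, Prss16 and Tbata separate the groups by the widest gaps, whereas Ly75, Ccl25 and Cldn4 stay high in the lymphomas.

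Genes specific to the cortical epithelium were nearly absent from both lymphoma groups. Psmb11 (chromosome 14, 54625310 to 54629556) encodes the β5t subunit of the thymoproteasome, which is made only in cortical epithelial cells. It read 91, 36 and 122 normalized counts in WT thymus, 0 in all 5 Atm-/- lymphomas, and 0, 0, 0, 1 and 0 in the Rag2c/c p53-/- lymphomas. Setting the limit at 3 reads over the whole group, the Atm-/- level was at least 105-fold lower than in WT thymus. The single read in Rag2c/c p53-/- lymphomas gave a level 351-fold lower, with a 95% counting interval of 63.0 to 13864. Psmb11 was called lower in both groups, with adjusted p = 2.39e-06 and 6.96e-06. It reached the filter only with the WT thymuses, so these calls describe the set and no more.

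Prss16 (chromosome 13, 22002176 to 22009742) encodes the thymus-specific serine protease of cortical epithelial cells. It read 237, 172 and 265 in WT thymus, 2, 0, 2, 15 and 1 in Atm-/- lymphomas and 2, 0, 2, 3 and 2 in Rag2c/c p53-/- lymphomas. No lymphoma came near a WT thymus, and Atm-/- replicate 4 was the highest of the 10. Prss16 also reached the filter only with the WT thymuses, so its calls describe the set. The log2 difference was -6.16 ± 0.75 (SE; adjusted p = 4.55e-05) in Atm-/- and -6.44 ± 0.75 (adjusted p = 5.72e-05) in Rag2c/c p53-/- lymphomas.

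Ly75 (CD205), an endocytic receptor carried by cortical epithelial cells and also by dendritic cells, read 985, 799 and 1061 in WT thymus, 468 to 739 in Atm-/- lymphomas and 220 to 813 in Rag2c/c p53-/- lymphomas. Its group means were 60.3% and 58.3% of the WT mean, and neither log2 difference was called (-0.74, 95% interval -1.47 to -0.01, adjusted p = 0.0922; -0.90, -1.63 to -0.17, adjusted p = 0.052). In Rag2c/c p53-/- lymphomas it was called without replicate 3 (-1.07, adjusted p = 0.0234) or without replicate 4 (-1.04, adjusted p = 0.0367). Enpep, the aminopeptidase A recognised by the Ly51 antibody, was at the limit of detection, with 14, 0 and 16 in WT thymus and at most 4 in any lymphoma. The summed level of 7 dendritic cell markers was 1110 to 1787 in WT thymus, 223 to 601 in the Atm-/- group and 189 to 694 in the Rag2c/c p53-/- group, with none of the 7 at 0 throughout a group. The share of those cells in the Ly75 values was not tested.

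The regulators Foxn1, Pax1, Eya1 and Tbata were called lower in both lymphoma groups, and Trp63 in Rag2c/c p53-/- lymphomas. These 5 of the 6 regulators tested were among the genes that reached the filter only with the WT thymuses, so their calls, beside 17.0% and 13.9% of all genes tested called lower, describe the set and no more. Foxn1 (chromosome 11, 78357577 to 78386558) read 31, 19 and 34 in WT thymus, 1, 0, 0, 2 and 2 in Atm-/- lymphomas and 4, 3, 7, 1 and 3 in Rag2c/c p53-/- lymphomas. Every lymphoma lay below every WT thymus, and the log2 differences were -3.98 ± 0.58 (adjusted p = 0.000168) and -2.75 ± 0.58 (adjusted p = 0.00276). Between the lymphoma groups Foxn1 did not pass the test (-1.23, 95% interval -2.32 to -0.14, adjusted p = 0.138).

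Tbata, a thymus and testis protein made by stromal cells of the thymus, had the highest level per kilobase of the regulators in WT thymus. It read 450, 351 and 427 in WT thymus, 0, 0, 2, 0 and 0 in Atm-/- lymphomas and 5, 0, 19, 4 and 9 in Rag2c/c p53-/- lymphomas. The Atm-/- values came from a single read, which puts the level 1558-fold below WT thymus with a 95% counting interval of 280 to 61550. In Rag2c/c p53-/- lymphomas the log2 difference was -6.16 ± 0.78 (adjusted p = 9.49e-05). Replicate 2, the shallowest of that group, held the only 0, and the 4 others lay between 4 and 19. The difference between the lymphoma groups just missed the threshold (-2.19, adjusted p = 0.0506).

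Pax1 and Eya1 act in the pharyngeal endoderm from which the thymus forms, and Pax1 stays on in the epithelium. Pax1 read 117, 55 and 90 in WT thymus, 3, 0, 5, 28 and 5 in Atm-/- lymphomas and 6, 0, 4, 1 and 1 in Rag2c/c p53-/- lymphomas. Its log2 differences were -3.99 ± 0.91 (adjusted p = 0.00325) and -4.97 ± 0.91 (adjusted p = 0.00104). The value of 28 in Atm-/- replicate 4 stood apart from the other lymphomas, all at or below 6, yet lay below WT thymus. Eya1 read 19, 26 and 23 in WT thymus, 4 in Atm-/- replicate 4 and 0 in the other 4 libraries of its group, and 0 to 3 in Rag2c/c p53-/- lymphomas. Both its differences were called (adjusted p = 0.000276 and 0.00101). Pax9, the paralog of Pax1, read only 13, 6 and 8 in WT thymus and at most 8 in a lymphoma.

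Trp63, the p53 family member that maintains stratified and medullary epithelial progenitors, had an uneven WT level of 24, 3 and 32, with the low value in the shallow replicate 2. It read 3, 0, 3, 19 and 6 in Atm-/- lymphomas and 4, 0, 2, 0 and 2 in Rag2c/c p53-/- lymphomas. Its values overlapped WT thymus in both comparisons. The Rag2c/c p53-/- difference of -2.80 was called (adjusted p = 0.0343) but not without WT replicate 1 (adjusted p = 0.135), WT replicate 3 (0.16), or Rag2c/c p53-/- replicate 2 (0.0646) or 4 (0.0704). Trp63 was no longer tested without Atm-/- replicate 4 or where only these groups were fitted. Its Atm-/- difference of -1.67 was not called (adjusted p = 0.169). The ETS factor Ehf is active in many simple and secretory epithelia. It read 18, 10 and 17 in WT thymus, 9, 9, 3, 6 and 14 in Atm-/- lymphomas and 14, 20, 31, 35 and 24 in Rag2c/c p53-/- lymphomas, and neither difference from WT thymus was called (-0.89, 95% interval -1.94 to 0.16, in Atm-/- lymphomas, where 4 of 5 libraries lay below every WT thymus). Its relative Elf3 stayed at or below 8 in all libraries.

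**Figure D2:**
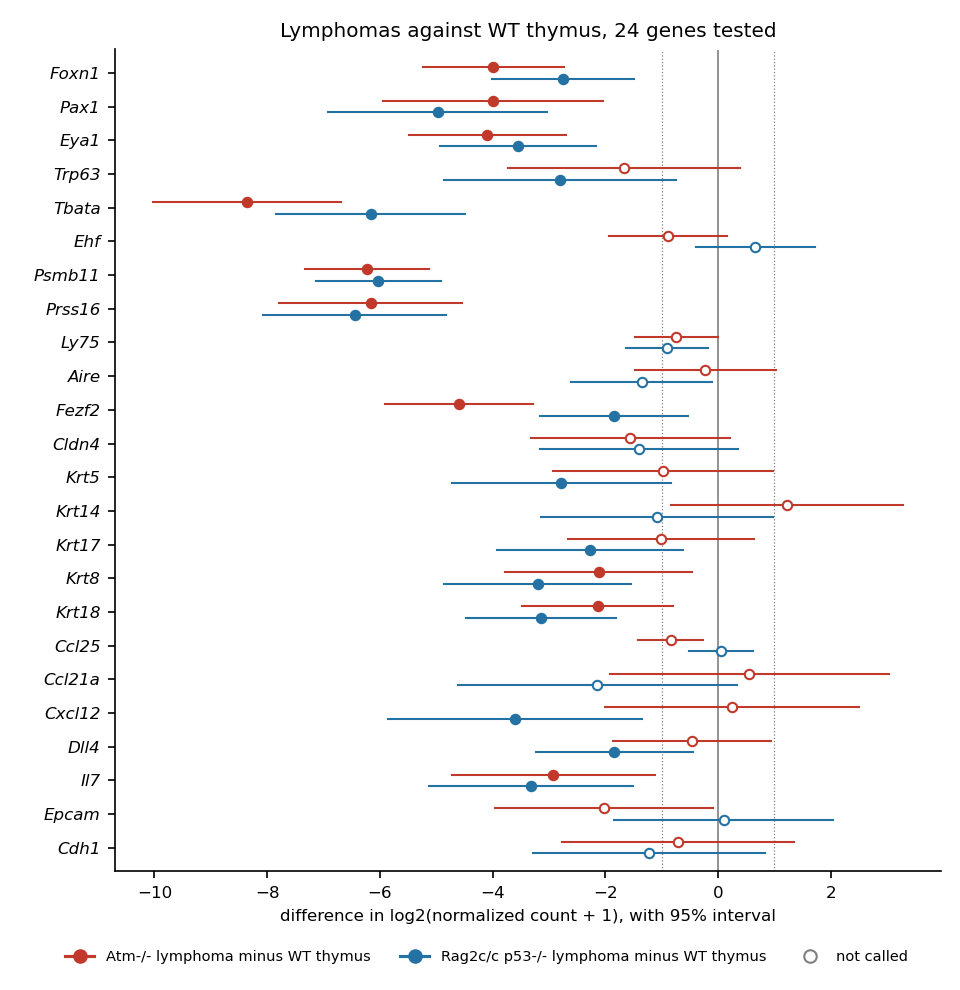
Difference in log2(normalized count + 1) from WT thymus for the 24 genes tested, with 95% intervals from limma (red, 5 Atm-/- lymphomas against 3 WT thymuses; blue, 5 Rag2c/c p53-/- lymphomas against 3 WT thymuses). Filled points were called, open points were not, dotted lines mark a difference of 1, and no filled point lies to the right of 0.

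The regulators of self-antigen display, Aire and Fezf2, parted from each other in Atm-/- lymphomas, although the contrast between the genes was not tested. Aire, which drives promiscuous expression of tissue antigens in mature medullary epithelial cells, read 61, 39 and 58 in WT thymus. It read 90, 14, 53, 51 and 47 in Atm-/- lymphomas and 7, 17, 33, 26 and 27 in Rag2c/c p53-/- lymphomas. The Atm-/- values spanned the WT values on both sides (-0.23, 95% interval -1.48 to 1.02, adjusted p = 0.77), and the sign turned without Atm-/- replicate 2 (0.17). All 5 Rag2c/c p53-/- libraries lay below WT thymus, but the difference of -1.36 was not called (adjusted p = 0.0818). It was called without Atm-/- replicate 2 (adjusted p = 0.0352).

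Fezf2 governs a separate set of self antigens in the same cells. It read 26, 23 and 32 in WT thymus, 0, 0, 0, 0 and 1 in Atm-/- lymphomas and 2, 3, 18, 9 and 11 in Rag2c/c p53-/- lymphomas. A single read accounted for the Atm-/- level, 103-fold below WT thymus with a 95% counting interval of 18.4 to 4060. The same Atm-/- libraries held 14 to 90 normalized counts of Aire and 0 or 1 of Fezf2. Fezf2 too reached the filter only with the WT thymuses, so its calls describe the set. In Rag2c/c p53-/- lymphomas Fezf2 was called lower (-1.85, adjusted p = 0.0298), a call lost when any of the 3 WT thymuses was left out (adjusted p = 0.0852, 0.0621 and 0.111) and without Rag2c/c p53-/- replicate 1 (0.0533) or 2 (0.0543), and at a pseudocount of 0.5 (0.0501).

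The claudins seal epithelial junctions, and claudin-3 and claudin-4 mark medullary epithelial progenitors. Claudin-4 is also made by double-positive thymocytes. Cldn4 read 450, 598 and 441 in WT thymus, 96, 365, 132, 303 and 92 in Atm-/- lymphomas and 25, 324, 393, 550 and 119 in Rag2c/c p53-/- lymphomas. Every Atm-/- lymphoma lay below WT thymus, but the difference of -1.55 was not called (adjusted p = 0.137). It was called when Rag2c/c p53-/- replicate 1 was left out of the fit (adjusted p = 0.0336) or when only these groups were fitted (0.0259). Cldn3 ran the other way at a low level, with 3, 0 and 1 in WT thymus and 9, 5, 8, 13 and 18 in Atm-/- lymphomas. It missed the filter on low values and was called higher where no filter was applied. It was also called higher without any 1 of the WT thymuses, where the filter asked for 2 libraries and not 3.

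Keratins of simple epithelium, carried by cortical cells, were called lower in both groups, whereas of those of stratified epithelium, carried by medullary cells, Krt5 and Krt17 were called lower in Rag2c/c p53-/- lymphomas and none in Atm-/- lymphomas. Krt8 read 228, 140 and 223 in WT thymus, 19, 9, 53, 173 and 92 in Atm-/- lymphomas and 20, 10, 42, 16 and 24 in Rag2c/c p53-/- lymphomas. Its partner Krt18 read 231, 136 and 211, then 28, 11, 39, 117 and 89, then 16, 17, 32, 16 and 25. Both fell below every WT thymus in the Rag2c/c p53-/- lymphomas, with log2 differences of -3.19 ± 0.77 (adjusted p = 0.00601) and -3.14 ± 0.62 (adjusted p = 0.00176). Some reads of Krt8 cannot be placed uniquely, since 18.9% of its 90-base windows also occur in the pseudogene Krt8-ps.

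In Atm-/- lymphomas the log2 differences of the simple keratins were -2.12 and -2.13 (adjusted p = 0.0387 for Krt8 and 0.0136 for Krt18). The Krt8 call was lost without any 1 of the 3 WT thymuses (adjusted p = 0.115, 0.0629 and 0.114) and without Atm-/- replicate 1 (0.0785), 2 (0.0638) or 3 (0.0525), and where only these groups were fitted (0.0649). The Krt18 call was lost without WT replicate 1 (0.0581) or 3 (0.0535). Atm-/- replicate 4 had 173 normalized counts of Krt8, between the lowest and highest WT thymus, while replicate 2 had 9.

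Krt5, Krt14 and Krt17 belong to basal and stratified epithelia, and Krt5 and Krt14 mark the medulla. Krt5 read 151, 49 and 123 in WT thymus, 26, 9, 47, 233 and 99 in Atm-/- lymphomas and 14, 3, 34, 21 and 12 in Rag2c/c p53-/- lymphomas. Krt17 gave the same order of libraries in Atm-/- lymphomas, at 24, 9, 39, 167 and 76, against 107, 55 and 99 in WT thymus and 7 to 42 in Rag2c/c p53-/- lymphomas. Krt14 read 19, 3 and 15 in WT thymus, 13, 7, 16, 111 and 49 in Atm-/- lymphomas and 0 to 10 in Rag2c/c p53-/- lymphomas. Atm-/- replicate 4 thus exceeded all 3 WT thymuses for Krt5, Krt14 and Krt17, and for none of them was the Atm-/- group called.

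In Rag2c/c p53-/- lymphomas Krt5 (-2.78, adjusted p = 0.028) and Krt17 (-2.27, adjusted p = 0.0332) were called lower and Krt14 was not (-1.08, adjusted p = 0.396). The call of Krt5 was lost without WT replicate 1 (0.111), WT replicate 3 (0.0971) or Rag2c/c p53-/- replicate 2 (0.0551), and the call of Krt17 without any 1 of the WT thymuses (0.114, 0.052 and 0.108) or without Rag2c/c p53-/- replicate 1 (0.0501), 2 (0.0652), 4 (0.0518) or 5 (0.0563). The difference between the lymphoma groups itself was not called for Krt5 (1.80, adjusted p = 0.163), Krt14 (2.30, 0.0914) or Krt17 (1.25, 0.257). Krt15 was at or below 3 in all 13 libraries, too low to compare.

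**Figure D3:**
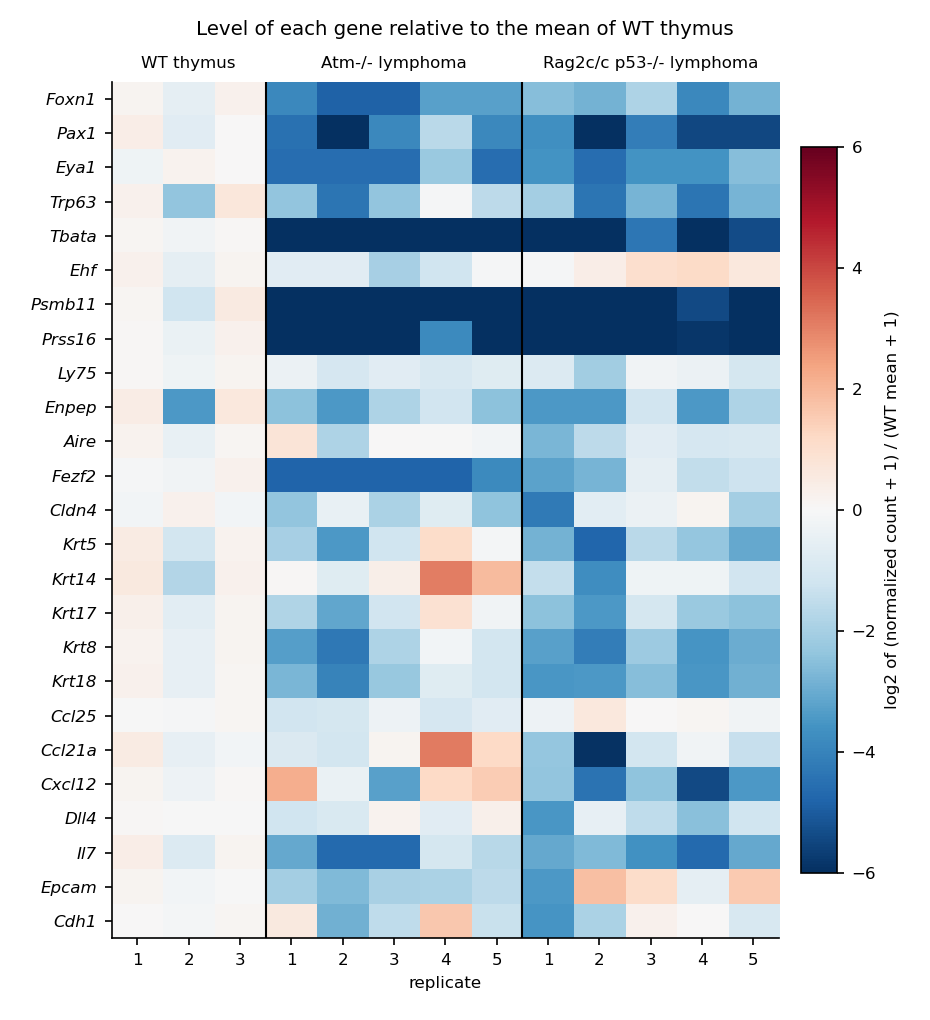
Level of the genes with a WT mean of at least 10 in each library, as log2 of the normalized count plus 1 over the WT mean plus 1 (blue, below the WT mean; red, above; colors end at 6 in either direction). Psmb11, Prss16 and Tbata are dark blue in nearly all lymphomas, the keratins and Ccl21a are palest or red in Atm-/- replicate 4, and Epcam is red in Rag2c/c p53-/- replicates 2, 3 and 5.

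Of the 5 ligands tested, 1 was called lower in Atm-/- lymphomas and 3 in Rag2c/c p53-/- lymphomas, and 0 were called higher. Among all genes tested 17.0% and 13.9% were called lower. Il7 and Dll4 reached the filter only with the WT thymuses, so their calls describe the set. Il7, the cytokine that sustains early thymocytes, read 32, 13 and 27 in WT thymus, 2, 0, 0, 11 and 7 in Atm-/- lymphomas and 2, 3, 1, 0 and 2 in Rag2c/c p53-/- lymphomas. It was called lower in both (-2.92, adjusted p = 0.0128; -3.32, adjusted p = 0.00779), although in Atm-/- lymphomas not without WT replicate 1 (0.0586) or 3 (0.0523). Dll4, the Notch ligand that commits precursors to the T lineage and is also made by endothelium, was low throughout, at 11, 10 and 10 in WT thymus, 4, 5, 12, 6 and 13 in Atm-/- lymphomas and 0, 7, 3, 1 and 4 in Rag2c/c p53-/- lymphomas. The latter was called lower (-1.84, adjusted p = 0.0396), a call lost without any 1 of the WT thymuses (0.113, 0.0893 and 0.104) or without Rag2c/c p53-/- replicate 1 (0.0659) or 4 (0.0764), with no filter (0.0538) and where only these groups were fitted (0.0638).

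Ccl25 (chromosome 8, 4325210 to 4360020), which attracts CCR9-bearing precursors and thymocytes, was the most constant of the ligands. It read 274, 260 and 296 in WT thymus, 124, 132, 225, 135 and 174 in Atm-/- lymphomas and 227, 429, 281, 297 and 240 in Rag2c/c p53-/- lymphomas. The Rag2c/c p53-/- libraries straddled the WT thymuses, with a log2 difference of 0.06 (95% interval -0.52 to 0.63, adjusted p = 0.886) that became -0.09 without replicate 2. All Atm-/- libraries lay below both other groups. That difference reached adjusted p = 0.0214 against WT thymus and 0.0246 against Rag2c/c p53-/- lymphomas but was under the size needed for a call (-0.84 and -0.89). Without Atm-/- replicate 3 the latter was -1.03 and was called (adjusted p = 0.0134).

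Cxcl12, a chemokine for CXCR4-bearing cells made by cortical epithelium and by fibroblasts and endothelium, divided the lymphomas. It read 97, 68 and 91 in WT thymus, 384, 64, 8, 194 and 244 in Atm-/- lymphomas and 16, 3, 15, 1 and 7 in Rag2c/c p53-/- lymphomas. Every Rag2c/c p53-/- library was below every WT thymus (-3.60 ± 1.05, adjusted p = 0.0163), a call lost without WT replicate 1 (0.0582) or 3 (0.0564). The Atm-/- libraries scattered to either side of WT thymus (0.25, 95% interval -2.0 to 2.5, adjusted p = 0.863), and the sign turned without replicate 1 (-0.23) or 5 (-0.07). The chemokines of the medulla are Ccl19 and Ccl21a, which draw CCR7-bearing thymocytes. Ccl21a read 83, 42 and 54 in WT thymus, 32, 27, 67, 523 and 140 in Atm-/- lymphomas and 11, 0, 27, 51 and 22 in Rag2c/c p53-/- lymphomas. Neither group was called for Ccl21a, and the Atm-/- difference of 0.56 became -0.10 without replicate 4. Near-identical copies exist, with 54.8% of the 90-base windows of Ccl21a and 41.4% of those of Ccl19 shared with other genes, and reads that aligned in several places were not counted. Ccl19 was at or below 2 throughout.

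Of 10 genes through which thymocytes receive or answer these signals, 5 were called lower in the Atm-/- group and 4 in the Rag2c/c p53-/- group, with 0 higher, beside 17.0% and 13.9% of all genes tested called lower. Ccr7, the receptor for Ccl21a, fell from 1897 to 2281 in WT thymus to 87 to 267 in the Atm-/- group and 53 to 189 in the Rag2c/c p53-/- group (-3.64, adjusted p = 2.97e-05; -4.39, adjusted p = 1.30e-05). Cd40lg, by which mature thymocytes induce medullary epithelium through CD40, read 422 to 586 in WT thymus, 0 to 6 in Atm-/- lymphomas and 0 to 27 in Rag2c/c p53-/- lymphomas (-6.98 and -7.36, both called). Cd40lg reached the filter only with the WT thymuses. Ltb, a subunit of lymphotoxin, was called lower in both groups (-2.76 and -2.13), and Tnfsf11 (RANKL) and Lta were called in Atm-/- lymphomas (-2.83 and -2.87). Ccr9 was called in Rag2c/c p53-/- lymphomas (-1.51, adjusted p = 0.0276). Cxcr4, Notch1, Notch3 and Il7r were not called against WT thymus in either group. Il7r lay wholly above WT thymus in Atm-/- lymphomas (2860 to 7078, against 1819 to 2398), as did 23.4% of all genes tested. It was called higher there than in Rag2c/c p53-/- lymphomas (2.52, adjusted p = 0.0114). Notch1 lay wholly above WT thymus in Rag2c/c p53-/- lymphomas (11569 to 26815, against 9029 to 10854), as did 19.7% of all genes tested.

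**Figure D4:**
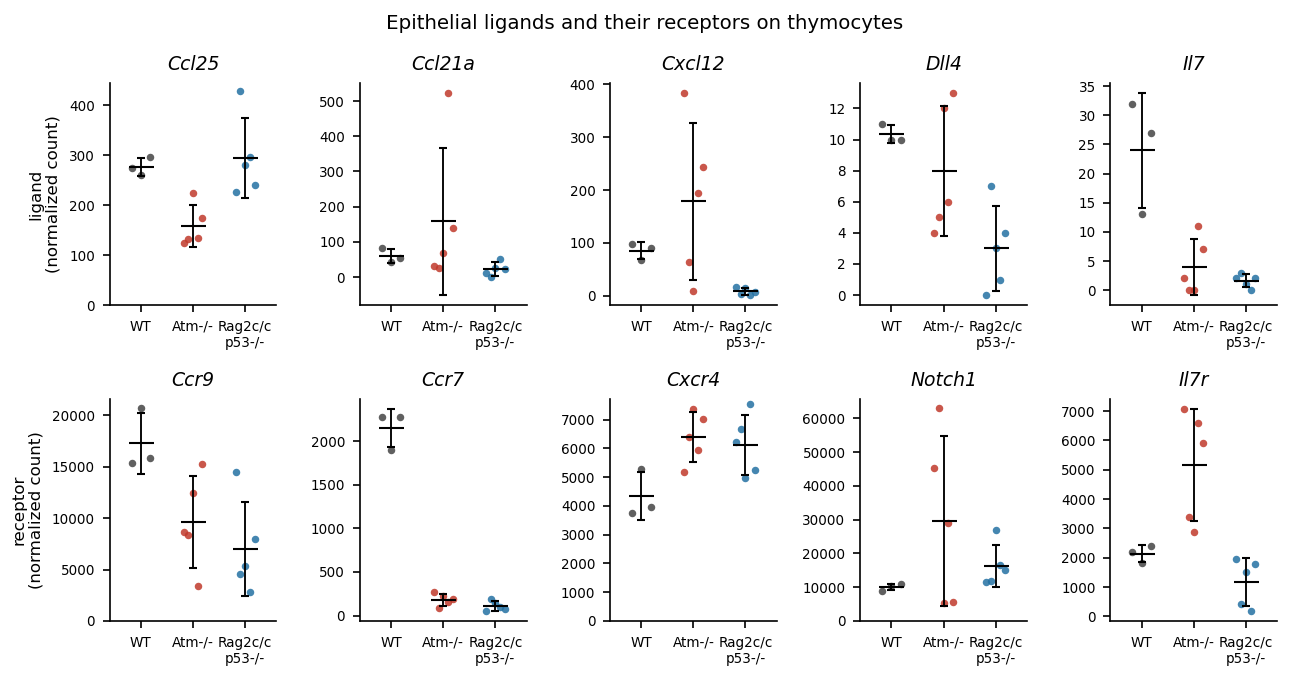
Normalized counts of 5 epithelial ligands (top row) and of a receptor for each (bottom row), with a point for each library and bars for the mean ± SD (n = 3 WT thymuses, n = 5 lymphomas of each genotype). Ccl25 stays between 124 and 429 in the lymphomas, Cxcl12 is at or below 16 in all Rag2c/c p53-/- libraries, and Ccr7 is at or below 267 in all 10 lymphomas.

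Epcam is a homophilic adhesion molecule used to sort thymic epithelial cells and also found on some T lineage and dendritic cells. It read 283, 221 and 251 in WT thymus, 60, 39, 64, 66 and 85 in Atm-/- lymphomas and 22, 875, 540, 172 and 750 in Rag2c/c p53-/- lymphomas. All 5 Atm-/- libraries lay below all 3 WT thymuses. That difference (-2.02, 95% interval -3.96 to -0.08) had an adjusted p of 0.0829 where all 3 groups shared a spread, 0.000699 where only these groups were fitted, and 0.0036 without Rag2c/c p53-/- replicate 1.

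The Rag2c/c p53-/- libraries ran from far below to far above the WT thymuses (0.10, 95% interval -1.84 to 2.04, adjusted p = 0.94), and the sign turned without replicate 2 (-0.33), 3 (-0.15) or 5 (-0.27). Epcam and the keratins gave different orders of these libraries. Replicate 2, with 875 normalized counts of Epcam, held 10 of Krt8, 17 of Krt18, 3 of Krt5, 0 of Prss16 and 0 of Psmb11. Replicate 5, with 750 of Epcam, held 24 of Krt8, 25 of Krt18, 2 of Prss16 and 0 of Psmb11. Replicate 3, with 540 of Epcam, held the most keratin of its group, with 42 of Krt8, 32 of Krt18 and 34 of Krt5. Cdh1, or E-cadherin, varied as widely, at 231, 208 and 245 in WT thymus, 345, 30, 79, 696 and 90 in Atm-/- lymphomas and 19, 61, 272, 229 and 115 in Rag2c/c p53-/- lymphomas, and was not called. Rag2c/c p53-/- replicate 1 was the lowest of its group for Epcam, Cdh1, Cldn4 and Aire at once.

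Expressed per kilobase of exon, the order of the 30 genes by mean level changed between groups. In WT thymus it was led by Cldn4 (273 normalized counts per kilobase), Tbata (169), Ly75 (137), Krt18 (134) and Epcam (115). In Atm-/- lymphomas Ccl21a led (181), followed by Cldn4 (109) and Ly75 (82.8), and the first rank of Ccl21a rested on replicate 4. In Rag2c/c p53-/- lymphomas Epcam led (215), followed by Cldn4 (155) and Ly75 (80.1). Tbata, the gene of rank 2 in WT thymus, fell to 0.165 and 3.05 normalized counts per kilobase.

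Between the lymphoma groups, 1 of the 30 genes was called lower and 1 higher in Atm-/- than in Rag2c/c p53-/- lymphomas, where 7.84% of all genes tested were called, 4.33% lower and 3.51% higher. Cxcl12 was the higher gene, by 3.85 ± 0.91 on the log2 scale (adjusted p = 0.0154), although Atm-/- replicate 3, at 8, fell within the range of the other group. Ehf was the lower gene (-1.55 ± 0.42, adjusted p = 0.0312), and the call was lost without Atm-/- replicate 1 (0.0524), 3 (0.0609) or 4 (0.0658) or Rag2c/c p53-/- replicate 3 (0.0633), 4 (0.0654) or 5 (0.0604), with no filter (0.0512) and in a fit of the lymphomas alone (0.0659). Fezf2 was lower in Atm-/- lymphomas (-2.75, adjusted p = 0.00503) with no overlap of the libraries, but its mean was under 10 in both groups and it was not called. It was called without Rag2c/c p53-/- replicate 1 (-3.09, adjusted p = 0.00246) or 2 (-2.98, adjusted p = 0.0039), which hold its lowest values, and with no filter on the level. Fezf2 and Ccl25 were the 2 genes with every Atm-/- library below every Rag2c/c p53-/- library, where 4.48% of all genes tested showed that order. Leaving out Atm-/- replicate 2 added Aire (1.52, adjusted p = 0.0384), Krt5 (2.37, 0.0472) and Krt18 (1.47, 0.0453) to the higher calls, and leaving out Rag2c/c p53-/- replicate 1 added Epcam (-3.01, 0.000859) to the lower ones.

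The summed level of the 30 genes was highest in Atm-/- replicate 4 (3372, against 1203 to 2018 in the rest of its group) and in Rag2c/c p53-/- replicate 3 (2643, against 976 to 2205). Atm-/- replicate 4 was the highest library of its group for 11 of the 20 genes with a single highest library of at least 10 normalized counts, whereas it was highest for 19.9% of all genes tested. Those 11 included Krt5, Krt8, Krt14, Krt17, Krt18, Ccl21a, Pax1 and Prss16, so that keratins, a medullary chemokine and a cortical protease were all highest there. The same library had the highest summed level of 8 fibroblast markers (20672, against 6071 to 18003 in the rest of the group and 557 to 597 in WT thymus) and of 6 macrophage markers (11906, against 6204 to 8689). The summed level of 6 endothelial markers, most of it Pecam1, was the lowest of the group there (3467, against 4492 to 6419). Pecam1 was lowest there at 3036, whereas Cdh5, Kdr, Emcn, Tek and Egfl7 were each highest there, at 60, 30, 43, 8 and 290. The part of these cells in the epithelial values was not tested. Among Rag2c/c p53-/- lymphomas, replicate 3 was highest for 9 of 15 such genes, against 18.4% of all genes tested, and it also had the highest summed level of 7 dendritic cell markers (694).

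Another list of 32 thymic epithelial genes, none of them among the 30, was read in the same way. Of its 21 genes tested, 9 were called lower and 4 higher in Atm-/- lymphomas, beside 17.0% and 12.6% of all genes tested. In the Rag2c/c p53-/- group 7 were lower and 1 higher, beside 13.9% and 9.77%. The median log2 difference of those 21 was -1.56 and -0.92, beside -0.02 for all genes tested in either comparison. Hoxa3, a homeobox gene required for the thymus to form, read 25, 39 and 34 in WT thymus and at most 4 in a lymphoma (-3.95, adjusted p = 0.000379; -3.82, adjusted p = 0.000683). Hoxa3, Spink5, Esrp1 and Avil of this list reached the filter only with the WT thymuses, so calls among them are a description. Relb, an NF-kB subunit needed for the medulla, fell from 604 to 656 in WT thymus to 166 to 313 and 142 to 306 (-1.43 and -1.70). Cd40, the receptor for Cd40lg, gave -2.83 and -2.47 and was called in both.

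Grhl2 was the gene of that list called higher in both lymphoma groups. A grainyhead factor that maintains epithelial junctions, it read 10, 3 and 5 in WT thymus, 1018, 438, 270, 145 and 947 in Atm-/- lymphomas and 200, 243, 160, 284 and 642 in Rag2c/c p53-/- lymphomas. Every lymphoma exceeded every WT thymus, with log2 differences of 6.10 (adjusted p = 1.39e-05) and 5.40 (adjusted p = 5.73e-05). In the same lymphomas Foxn1 was at most 7 and Pax1 at most 28. Ctsl, the cortical protease cathepsin L, which other cells also make, rose in Atm-/- lymphomas from 1963 to 2498 in WT thymus to 3273 to 12835 (1.62, adjusted p = 0.00328), and Ltbr (1.32) and Krt19 (1.95) were called higher there too. Krt10 was called lower in Atm-/- lymphomas (-1.68) and differed between the lymphoma groups (-2.39, adjusted p = 0.00117).

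Markers of the cells that could share these transcripts were called in both directions. Among all genes tested, 17.0% were called lower and 12.6% higher in Atm-/- lymphomas, and 13.9% and 9.77% in Rag2c/c p53-/- lymphomas. Of 8 fibroblast markers 6 were called higher in each lymphoma group. Of 6 macrophage markers 2 were called higher in the Atm-/- group and 1 in the Rag2c/c p53-/- group. Dendritic cell markers were called lower for 4 and 5 of 7 genes and B cell markers for 3 and 4 of 5. Of 6 endothelial markers 4 were tested, with 1 called higher and 0 lower in Atm-/- lymphomas and 1 higher and 2 lower in Rag2c/c p53-/- lymphomas. The 2 called lower, Cdh5 and Kdr, reached the filter only with the WT thymuses. Of 9 thymocyte genes 4 and 1 were called lower, and 0 of 4 genes of dividing cells were called in either comparison. Among all of these lists no marker was at 0 in every library of a group. Their part in the values of the 30 genes was not tested.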

How the data were processed

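RNA sequencing of polyA RNA was analysed in 13 libraries, 5 Atm-/- lymphomas, 5 Rag2c/c p53-/- lymphomas and 3 WT thymuses, grouped by genotype and tissue labels. The methods, described for the WT thymuses and for lymphomas of other genotypes, are taken to hold for all libraries: TruSeq Stranded mRNA libraries, STAR 2.4.0g1 on GRCm38 (mm10), removal of duplicates and of reads without a unique position, HTSeq-count per gene and DESeq2 1.6.3, with Picard and bcl2fastq 1.8.3 among the tools of the submitters' processing notes.

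The deposited values are a score, normalized counts that the authors scaled by DESeq2 size factors and wrote as whole numbers. The table itself shows this. Column totals were 19788898 to 21591289, and size factors recomputed from the 13 columns were 0.993 to 1.03. The authors' overall mean column lay within 1% of the mean of the 13 libraries for only 489 of 10763 genes with a mean of at least 100. In the deep libraries a read was worth less than the rounding, which hides the raw counts, so no test for counts was used. Depth was estimated from the spacing of low values. Intervals on reads are 95% exact Poisson intervals, and these, with the limit of 3 reads, cover counting error only. The deposited fold changes, p-values and dispersions of the authors' own comparisons were not used.

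The test here was limma 3.58.1 (R 4.3.3) on log2(value + 1), with robust moderation and a trend of the variance with the mean, over all 13 libraries of the 3 groups and genes of at least 10 in at least 3 libraries (15872 genes). The fit was tested on simulated data. Calls needed an adjusted p under 0.05, a log2 difference of 1 or more and, in a group compared, a mean of 10 or more. A log2 difference on this scale understates the change of low genes. All 30 genes were named, grouped by role. The members and all gene lists were chosen with earlier results of these data known. Lists covered other thymic epithelial genes, partners on thymocytes, fibroblasts, endothelium, dendritic cells, macrophages, B cells, thymocytes and dividing cells. Promoters were from RefSeq on GRCm38.p6, and exon lengths and 90-base windows from GENCODE vM21 on GRCm38. Extra rows of Ccl19 and Ccl21a on an unplaced scaffold read 0 in all libraries and were left out. Alternatives were other scalings, filters, pseudocounts of 4 and 0.5, no limit on the fold change, fits of 2 groups, no trend, and leaving out each library. Tables used Python 3.11.15 with pandas 2.3.3 and figures matplotlib 3.10.9.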

Additional observations from a re-analysis of the deposited data

Results flagged for a closer look

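In Atm-/- lymphoma replicate 4, 3 genes stood far from the other 4 libraries of their group. Pax1 read 28 there and at most 5 elsewhere, Prss16 read 15 and at most 2 elsewhere, and Ccl21a read 523 and at most 140 elsewhere. These were 3 of 36 sets of 5 libraries examined, each a member in a lymphoma group that reached 10 in at least 1 library. The rule singles out about 1 in 20 sets where values follow a normal distribution. Its rate for low and skewed counts such as these was not tested and may be higher. The 3 genes share a library, so they are not separate observations.

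Of the 24 genes tested, 2 differed between the lymphoma groups by the test of that difference, where 7.84% of all genes tested were called. Cxcl12 was higher in Atm-/- than in Rag2c/c p53-/- lymphomas, by 3.85 on the log2 scale, and in 4 of 5 Atm-/- libraries it exceeded every Rag2c/c p53-/- library. Ehf was lower in Atm-/- lymphomas (-1.55), and 4 of its 5 Atm-/- values lay below every Rag2c/c p53-/- value. The Ehf call was lost without any 1 of 6 lymphomas, with no filter on the level and in a fit of the lymphomas alone.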

How the results depend on the processing

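Neither other scaling changed the number of the 30 genes called in any of the 3 comparisons, and neither did a pseudocount of 4 or a fit with no trend. Under a filter on the mean over the 13 libraries, 18 of the 30 were tested and the genes called lower numbered 6 (Atm-/-) and 9 (Rag2c/c p53-/-), since fewer could be tested. With no filter Cldn3 was called higher in Atm-/- lymphomas, Pax9 replaced Dll4 among the lower calls in Rag2c/c p53-/- lymphomas, and Fezf2 replaced Ehf between the lymphoma groups. A pseudocount of 0.5 lost Fezf2 in the Rag2c/c p53-/- group. Fits of only the groups compared lost Krt8 and gained Cldn4 and Epcam (Atm-/-), and lost Dll4 and Trp63 (Rag2c/c p53-/-). With no limit on the fold change 5884 genes in all were called in Rag2c/c p53-/- lymphomas, and the genes of the set called lower between the lymphoma groups numbered 2, Ccl25 joining Ehf. In a fit of the lymphoma groups alone that number was 0.

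Leaving out each of the 13 libraries in turn, the genes of the set called lower numbered 7 to 12 (Atm-/-) and 9 to 16 (Rag2c/c p53-/-) against WT thymus, and 0 to 3 between the lymphoma groups. Those called higher numbered 0 to 1, 0 and 1 to 4. Over all genes 3746 to 4902, 2817 to 3956 and 934 to 1315 were called. Psmb11, Prss16, Tbata, Foxn1, Pax1 and Eya1 kept their call against WT thymus in both groups in each of these fits. All of them reached the filter only with the WT thymuses, so the kept calls describe the set and no more.

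Signs turned for 10 of the 24 genes tested when a library was left out, and none of these values passed the test where it turned. Given as the range over the 13 fits, Aire lay at -0.48 to 0.17, Ccl21a at -0.10 to 0.96 and Cxcl12 at -0.23 to 1.12 in Atm-/- lymphomas against WT thymus. Against the same thymuses, Ccl25 lay at -0.089 to 0.14 and Epcam at -0.33 to 0.99 in the Rag2c/c p53-/- group. Between the lymphoma groups Prss16 lay at -0.31 to 0.69, Ly75 at -0.14 to 0.33, Cldn4 at -0.85 to 0.25, Il7 at -0.088 to 0.81 and Cdh1 at -0.060 to 1.06. Of these, Atm-/- replicate 4 turned Ccl21a, Prss16, Il7 and Cdh1, and Rag2c/c p53-/- replicate 2 turned Ccl25, Epcam, Prss16, Ly75 and Cldn4. The cause was not tested.

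The sample titles name no pairs of libraries, so no paired analysis was made. The lymphoma labels carry no replicate numbers, and the numbers used here follow the order of the samples. The shallowest WT thymus had 6.66 M reads, and genes near 10 normalized counts such as Dll4, Trp63 and Krt14 rest on few reads.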
